A study of Mus musculus with 9 samples.

Results

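The genes described here are 10 markers of macrophages and monocytes, Tyrobp, Fcer1g, Csf1r, Cd14, Mrc1, C1qa, C1qb, Cd68, Lyz2 and Chi3l3, of 23799 genes in the table. They were taken by symbol, and each matched 1 row. Their levels were followed through 9 RNA sequencing libraries of fluorescent tumour cells sorted from mice with pancreatic ductal adenocarcinoma (PDAC) or breast cancer (BC). The study asked how tumour cells at metastatic sites differ in expression from those of the primary tumour. The sort was meant to leave out other cells, but haemoglobin genes took up to 38.9% of the summed values of a library. Values are RPKM, in which reads are divided by the length of the gene and by a total for the library.

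The PDAC libraries came from YFP-positive cells of 2 liver metastases (numbers 1 and 5), 1 lung metastasis (number 1) and 2 primary tumours (numbers 1 and 5). All 5 carried p48-Cre, p53F/+ and KrasL/+ together with the ROSA-LSL-YFP reporter, so YFP marks cells with a history of Cre, which the p48 promoter drives in the pancreas. Those of number 1 also carried SIRT6F/F and have a time of 25.67 weeks. Those of number 5 did not carry it and have a time of 28.95 weeks, so the SIRT6 label, the time and the number cannot be told apart. The BC libraries came from GFP-positive cells 28 days into growth of 4T1-eGFP tumours, which derive from 1 mouse mammary carcinoma line: 2 lung metastases (numbers 4 and 6) and 2 primary tumours (numbers 1 and 5). The labels do not say that the BC libraries of a group came from separate animals, so p-values measure only the spread between these libraries.

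Macrophages and monocytes are phagocytes that depend on signals through the receptor CSF1R and on the transcription factor PU.1 (Spi1, named Sfpi1 in the table). They engulf cells and debris, degrade them in lysosomes, secrete the complement protein C1q, and sense microbial products through receptors such as CD14. Neutrophils also transcribe Tyrobp, Fcer1g, Cd14 and Lyz2, and some myeloid cells of mice also transcribe Chi3l3, whereas Csf1r, Mrc1 and the C1q genes are more specific to mononuclear phagocytes. None of the 10 is a usual marker of carcinoma cells.

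Promoter sequence was looked up because a subset of the genes varied together across libraries. RefSeq promoters on GRCm38.p6 were found for Fcer1g, Chi3l3, Lyz2, Cd68, C1qb and Mrc1. The 250 bases before the start of 4 of them are shown: Chi3l3 for the 1 difference that passed its test, Lyz2 for its high level in both models, Cd68 as the general macrophage marker and C1qb for its parting from C1qa. Capitals mark GAGGAA, a form of the PU.1 site, and TGAGTCA, a form of the AP-1 site, searched on both strands. Other forms of these sites were not searched. The coordinates are chr3:106167565-106167814, minus strand, for Chi3l3, and chr10:117282273-117282522, minus strand, for Lyz2. They are chr11:69666171-69666420, minus strand, for Cd68, and chr4:136886201-136886450, minus strand, for C1qb.
Chi3l3: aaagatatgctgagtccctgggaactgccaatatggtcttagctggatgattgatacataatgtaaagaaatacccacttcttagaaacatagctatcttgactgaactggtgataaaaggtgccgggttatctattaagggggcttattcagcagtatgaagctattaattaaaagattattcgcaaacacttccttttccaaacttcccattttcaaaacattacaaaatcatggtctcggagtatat
Lyz2: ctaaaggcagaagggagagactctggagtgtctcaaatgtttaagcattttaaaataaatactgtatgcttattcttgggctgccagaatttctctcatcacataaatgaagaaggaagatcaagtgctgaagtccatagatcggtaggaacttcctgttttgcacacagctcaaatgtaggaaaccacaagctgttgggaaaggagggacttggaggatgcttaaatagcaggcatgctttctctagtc
Cd68: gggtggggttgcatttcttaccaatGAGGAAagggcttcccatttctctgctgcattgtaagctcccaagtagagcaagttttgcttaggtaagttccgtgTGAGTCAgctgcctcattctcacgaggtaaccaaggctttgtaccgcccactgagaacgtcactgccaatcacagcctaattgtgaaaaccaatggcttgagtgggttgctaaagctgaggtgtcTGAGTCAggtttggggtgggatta
C1qb: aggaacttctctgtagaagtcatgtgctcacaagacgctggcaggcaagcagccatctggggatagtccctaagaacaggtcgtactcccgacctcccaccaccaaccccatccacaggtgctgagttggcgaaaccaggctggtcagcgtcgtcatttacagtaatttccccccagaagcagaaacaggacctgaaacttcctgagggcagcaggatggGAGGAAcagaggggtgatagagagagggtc
GAGGAA was found in 23.3% and TGAGTCA in 4.46% of 32851 promoter windows of the same length. The window of Cd68 held GAGGAA with its first letter 225 bases before the start, and TGAGTCA at 149 and 24 bases before it. The C1qb window held GAGGAA at 30 bases, and the Mrc1 window held it on the opposite strand at 180, 167 and 35 bases. Neither was found in the windows of Fcer1g, Chi3l3 and Lyz2. These are matches of letters only.

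The libraries held an estimated 21300000 to 127900000 reads on genes. PDAC lung metastasis 1, PDAC primary 5 and BC lung metastasis 6 had the fewest genes above 0 (9530, 10410 and 10938), against 12144 to 20478 in the other libraries. Haemoglobin genes took 38.9% and 20% of the summed values in PDAC liver metastases 1 and 5, 38.6% in the PDAC lung metastasis and 10.9% in PDAC primary 1, against at most 0.107% in the remaining libraries. The summed value of 8 epithelial genes, which check the tumour cell label, was 6675 and 255 RPKM in liver metastases 1 and 5 of PDAC, 132 in the PDAC lung metastasis, and 2226 and 16559 in PDAC primary 1 and 5. In the BC libraries it was 4160 and 5805 in lung metastases and 5579 and 2959 in primary tumours.

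Summed, the 10 genes were more abundant in every PDAC library than in any BC library, and within PDAC they were most abundant in the metastases. The summed values made up 1.76% and 2.64% of the column in PDAC liver metastases 1 and 5, 2.42% in the PDAC lung metastasis, and 0.997% and 0.548% in PDAC primary 1 and 5. In BC lung metastases 4 and 6 the share was 0.169% and 0.0752%, against 0.114% and 0.216% in BC primary 1 and 5. With haemoglobin left out, the shares were 2.87%, 3.3% and 3.95% in the 3 PDAC metastases and 1.12% and 0.548% in the PDAC primary tumours. The PDAC groups did not overlap, and the BC groups did. In these bulk samples, fewer cells of a type and less RNA per cell cannot be told apart.

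**Figure D1:**
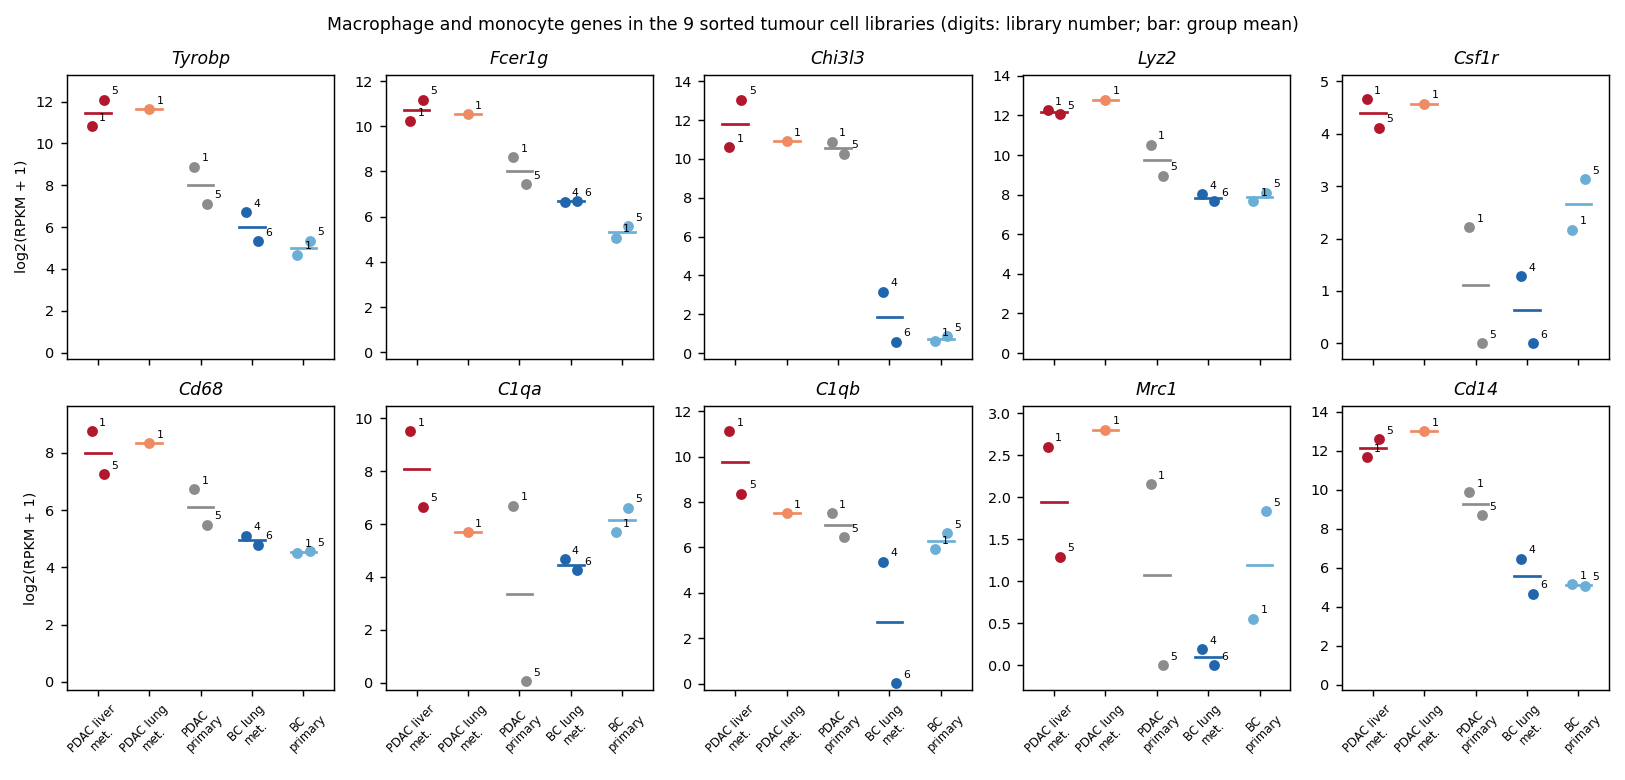
Each panel plots 1 gene, with log2(RPKM + 1) on the vertical axis and the 5 groups on the horizontal axis. Points are libraries, digits their numbers and bars group means. Tyrobp, Fcer1g, Lyz2 and Cd14 step down from the PDAC metastases through the PDAC primary tumours to the BC libraries, while Csf1r and Mrc1 stay low in every library and are listed at 0 in PDAC primary 5 and BC lung metastasis 6.

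Tyrobp (ENSMUSG00000030579) encodes DAP12, the ITAM adaptor that carries signals of receptors such as TREM2. It had 1825 and 4334 RPKM in liver metastases 1 and 5 of PDAC and 3174 in the lung metastasis, against 474 and 139 in PDAC primary 1 and 5. In BC it had 103 and 38.8 RPKM in lung metastases 4 and 6, against 24.8 and 39.8 in primary 1 and 5. Every PDAC metastasis was above both PDAC primary tumours, every PDAC library was above every BC library, and the BC groups overlapped. Among all genes of a library, Tyrobp ranked 38 and 25 in the liver metastases and 27 in the lung metastasis, against 131 and 688 in the PDAC primary tumours.

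Fcer1g (ENSMUSG00000058715) encodes the Fc receptor gamma chain, the other ITAM adaptor of myeloid cells and the signalling chain of activating Fc receptors. It had 1202 and 2308 RPKM in liver metastases of PDAC and 1472 in the lung metastasis, against 392 and 173 in PDAC primary tumours. Among BC libraries it had 100.2 and 102 RPKM in lung metastases and 32.5 and 46.7 in primary tumours. Metastases and primary tumours did not overlap in either model. The adaptors kept a similar ratio: Fcer1g was 0.464 to 1.31 times Tyrobp in 8 libraries and 2.62 times in BC lung metastasis 6.

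Cd14 (ENSMUSG00000051439), the co-receptor that hands lipopolysaccharide to TLR4 and MD-2, was the highest of the 10 genes in the PDAC lung metastasis. It had 3227.5 and 6182 RPKM in liver metastases of PDAC and 8171 in the PDAC lung metastasis, where it ranked 11 among all genes. PDAC primary tumours had 929.5 and 417 RPKM. BC libraries had 86.6 and 24.5 RPKM in lung metastases and 34.9 and 32.6 in primary tumours. All PDAC libraries were above all BC libraries, and the BC metastases lay on either side of the BC primary tumours.

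Csf1r (ENSMUSG00000024621), the receptor for the growth factors CSF1 and IL-34, was low throughout. It had 24.4 and 16.4 RPKM in liver metastases of PDAC and 22.9 in the PDAC lung metastasis, while PDAC primary 1 had 3.63 and PDAC primary 5 was listed at 0. In BC the gene had 1.44 RPKM in lung metastasis 4 and was listed at 0 in lung metastasis 6, against 3.49 and 7.80 in primary 1 and 5. Both BC metastases were thus below both BC primary tumours, the opposite order to that in PDAC.

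Mrc1 (ENSMUSG00000026712), the mannose receptor CD206, a scavenger receptor of resident and interleukin-4 activated macrophages, was the lowest of the 10 genes in every PDAC library in which it was above 0. It had 5.08 and 1.45 RPKM in liver metastases of PDAC and 6.0 in the lung metastasis, against 3.45 in PDAC primary 1 and a listed 0 in PDAC primary 5. BC lung metastasis 4 had 0.140 RPKM and lung metastasis 6 was listed at 0, against 0.467 and 2.56 in BC primary tumours. The PDAC liver and primary libraries overlapped, and the BC metastases were below the BC primary tumours.

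C1qa (ENSMUSG00000036887) and C1qb (ENSMUSG00000036905) encode chains of C1q, the recognition subunit of the classical complement pathway, and lie beside C1qc on chromosome 4. C1qa had 732 and 99.5 RPKM in liver metastases of PDAC and 50.6 in the lung metastasis, against 102 in PDAC primary 1 and 0.0307, a value of 1.00 estimated read, in PDAC primary 5. For BC the table gave 24.5 and 18.2 RPKM in lung metastases and 50.3 and 97.2 in primary tumours. Liver metastasis 1 stood far above the other libraries, and the PDAC groups overlapped.

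C1qb had 2222 and 330.3 RPKM in liver metastases of PDAC and 181 in the lung metastasis, against 182 and 87.2 in PDAC primary 1 and 5. BC lung metastasis 4 had 40.3 RPKM and lung metastasis 6 had 0.0197, a value of 1.00 estimated read, against 59.2 and 97.2 in BC primary tumours. Both liver metastases were above both PDAC primary tumours, the lung metastasis lay between these, and both BC metastases were below both BC primary tumours. The chains of 1 protein thus parted in 2 of the 9 libraries. C1qa was 0.28 to 0.999 times C1qb in 7 libraries, but 0.000352 times in PDAC primary 5 and 925 times in BC lung metastasis 6. The neighbouring C1qc had 0.0165 RPKM in PDAC primary 5 and 14.1 in BC lung metastasis 6, and so went with C1qa in both. These libraries are among the 3 with the fewest genes, and the part of that in the C1q values was not tested.

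Cd68 (ENSMUSG00000018774), a membrane glycoprotein of late endosomes and lysosomes that serves as a general macrophage marker, had 434 and 153 RPKM in liver metastases of PDAC and 323 in the PDAC lung metastasis. The PDAC primary tumours had 105 and 44.3 RPKM. In BC it varied little, with 33.6 and 26.7 RPKM in lung metastases and 21.8 and 22.8 in primary tumours. No groups of 1 model overlapped between metastasis and primary tumour.

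Lyz2 (ENSMUSG00000069516), the myeloid lysozyme and the usual driver of Cre in myeloid cells, had 4925 and 4309 RPKM in liver metastases of PDAC and 7064 in the lung metastasis, against 1469 and 498 in PDAC primary tumours. In BC it had 261 and 200.3 RPKM in lung metastases and 203 and 274 in primary tumours, and it was the highest of the 10 genes in each BC library. The PDAC groups stood apart, and the BC groups overlapped. Its near copy Lyz1 stayed far below it, with 33.0, 37.3 and 153 RPKM in PDAC liver metastases 1 and 5 and the lung metastasis and at most 14.7 elsewhere, but reads that fit both genes could be split between them.

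Chi3l3 (ENSMUSG00000040809; Chil3, also called Ym1), a secreted chitinase-like protein of rodent alveolar macrophages and interleukin-4 activated macrophages, separated the models more than any of the other 9 genes. It had 1560.5 and 8449 RPKM in PDAC liver metastases, 1950.2 in the PDAC lung metastasis, and 1893 and 1243 in PDAC primary tumours. Among BC libraries it had 7.91 and 0.516 RPKM in lung metastases and 0.540 and 0.839 in primary tumours. Its PDAC groups overlapped, and PDAC primary 5 had as much as 8.96 times the level of Tyrobp, against 0.614 to 1.95 times in the PDAC metastases. Its near copy Chi3l4 had 4.56 to 47.7 RPKM in PDAC libraries and at most 0.0468 in BC, and reads that fit both could be split between them.

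The mixture of the 10 genes also differed between libraries. Relative to Tyrobp, Csf1r was 0.0134 and 0.00377 in PDAC liver metastases and 0.0072 in the lung metastasis, against 0.00767 and 0 in PDAC primary tumours. In BC that ratio was 0.014 and 0 in lung metastases and 0.141 and 0.196 in primary tumours, which were above all other libraries. C1qa divided by Tyrobp was likewise highest in BC primary tumours, at 2.03 and 2.44, against 0.238 and 0.469 in BC lung metastases. The PDAC ratios were 0.401 and 0.023 in liver metastases and 0.0159 in the lung metastasis, against 0.216 and 0.000221 in primary tumours. Cd14 divided by Tyrobp varied far less, between 0.632 and 3.0 over all 9 libraries.

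**Figure D2:**
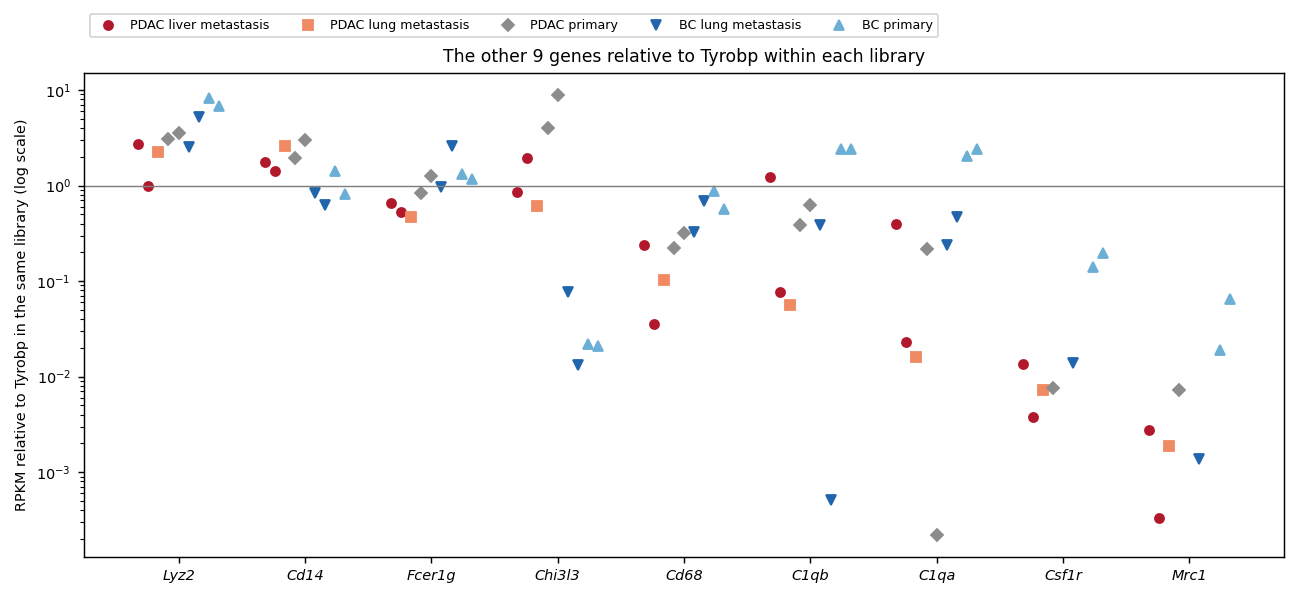
The vertical axis gives the RPKM of 9 genes divided by that of Tyrobp in the same library, on a log scale, with genes along the horizontal axis. Each point is a library, and its shape and colour give the group. Csf1r and Mrc1 have no point in PDAC primary 5 and BC lung metastasis 6, where they are listed at 0. The ratios of Csf1r and C1qa are highest in the BC primary tumours (0.141 and 0.196 for Csf1r), and that of Chi3l3 is highest in the PDAC primary tumours (4.0 and 8.96).

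Over the 9 libraries, the values on the log2 scale fell into patterns that are given as descriptions, since libraries share their model, site and depth. Tyrobp had a Pearson r of 0.987 with Fcer1g, 0.982 with Cd14 and 0.978 with Lyz2, but 0.719 with Csf1r and 0.398 with C1qa. C1qa and C1qb had an r of 0.516, and Csf1r and Mrc1 had 0.866. Among 12832 genes, the 4 most like Tyrobp were Fcer1g, Cd14, Gmfg (0.98) and Lyz2, so 3 of the 4 were other genes of the 10. Those most like C1qa were C1qc (0.979), Fcgrt (0.958), Cndp2 (0.955) and Ptpn11 (0.953). The closest to C1qa was thus its neighbour on the chromosome, and C1qb was not among the 4. Those most like Csf1r were Tet2 (0.963), Dusp3 (0.959), Trem2 (0.957) and F13a1 (0.957). For Chi3l3 they were Ms4a8a (0.981), Gdpd3 (0.978), Smpdl3a (0.977) and Ccl6 (0.977).

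Each comparison was tested with limma on log2(RPKM + 1) over the 12832 genes that reached 1 RPKM in 2 or more libraries, and a gene was called at a Benjamini-Hochberg adjusted p under 0.05. All 10 genes entered it. Differences are on the log2 scale and understate those of low genes such as Csf1r and Mrc1. Rescaling without haemoglobin moved the median of all genes to -0.13 in PDAC liver metastases (0.08 before), to -0.65 in BC lung metastases (-0.29 before) and to -0.77 between the primary tumours (-0.31 before).

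In PDAC liver metastases against PDAC primary tumours, all 10 genes had positive differences, also after rescaling without haemoglobin and after quantile scaling, but none was called. At this threshold 1 gene, or 0.00779% of those tested, was called. At an unadjusted p under 0.05, 7 of the 10 were higher, against 4.89% of all genes, and 53.9% of all genes had a positive difference. The median difference of the 10 was 2.71, against 0.08 over all genes. Tyrobp had a log2 difference of 3.45 ± 0.78 (SE; limma adjusted p = 0.250), Fcer1g 2.67 ± 0.62 (adjusted p = 0.274) and Lyz2 2.43 ± 0.58 (adjusted p = 0.304). Both liver metastases were above both primary tumours for 7 genes, all but Chi3l3, C1qa and Mrc1, against 15.4% of all genes. C1qa had the largest difference and error, 4.72 ± 1.75. Without the 3 libraries with the fewest genes, 9 differences were positive, 4 genes were higher at an unadjusted p under 0.05 and the median was 1.87, as was so without PDAC primary 5 alone. With the PDAC number as a block, a pairing by mouse taken from the labels, 0 genes of the table were called. Without PDAC primary 1, which leaves PDAC primary 5 alone and assumed to vary like the other groups, 6 of the 10 passed (Tyrobp, Fcer1g, Lyz2, Csf1r, C1qa and Cd14), and 1032 genes in all.

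The PDAC lung metastasis against PDAC primary tumours rests on a single metastasis, assumed to vary like the other groups, and on the same primary tumours. Again all 10 genes had positive differences (9 after quantile scaling, 8 with the PDAC number as a block) and none was called, where 0.584% of all genes were called and 33.7% had a positive difference. At an unadjusted p under 0.05, 6 were higher, against 5.78% of all genes. The nearest to the threshold were Lyz2, at 3.04 ± 0.71 (limma adjusted p = 0.0864), and Cd14, at 3.71 ± 0.87 (adjusted p = 0.0868). The median of the 10 was 2.41, against -0.50 over all genes. For 8 genes the lung metastasis was above both primary tumours, against 23.9% of all genes, the exceptions being C1qa and C1qb. Without PDAC primary 1, 5 genes passed (Tyrobp, Fcer1g, Lyz2, C1qa and Cd14), and 1547 genes in all. Without PDAC primary 5, 8 differences were positive, 3 genes were higher at an unadjusted p under 0.05 and the median was 1.76. With the block, 0 genes of the table were called. Lung epithelial genes moved with the 10: the summed value of 6 of them was 35988 RPKM, or 3.89% of the column, in the lung metastasis, against 2.13 and 462 in PDAC primary tumours. Of these, Sftpc (14.4, limma adjusted p = 0.025) and Scgb1a1 (6.52, adjusted p = 0.0446) were called as higher. Their part in the macrophage values was not tested.

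PDAC liver metastases and the PDAC lung metastasis differed in none of the 10 genes at the adjusted threshold, past which 0.0312% of all genes were called. Of them 4 had positive differences, against 67.0% of all genes, and none was higher at an unadjusted p under 0.05, against 7.99%. The lowest limma adjusted p was 0.734, for C1qb, with a log2 difference of 2.24 and a 95% interval of -1.79 to 6.27. For Tyrobp the difference was -0.17, with an interval of -2.29 to 1.94, so a several-fold difference in either direction cannot be told from none.

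In BC lung metastases against BC primary tumours, the 10 genes divided. Of them 5 had positive differences (3 after rescaling without haemoglobin), against 35.6% of all genes, and 5 had negative ones. None was higher at an unadjusted p under 0.05, against 0.881% of all genes. None was called, as was no gene of the table (0 of 12832, or 0.0%, with 265 at an unadjusted p under 0.05). Fcer1g had the largest positive difference, 1.35 ± 0.62, with a 95% interval of -0.03 to 2.73. C1qb had -3.57 ± 1.48 (unadjusted p = 0.0362, limma adjusted p = 0.974), which rests on the single read in lung metastasis 6. Without that library the difference was -0.90. Both metastases were below both primary tumours for Csf1r, C1qa, C1qb and Mrc1, against 27.0% of all genes, and above them for Fcer1g and Cd68, against 15.8%. Csf1r and Mrc1 are listed at 0 in lung metastasis 6. For Lyz2 the difference was -0.04, with an interval of -1.33 to 1.24.

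**Figure D3:**
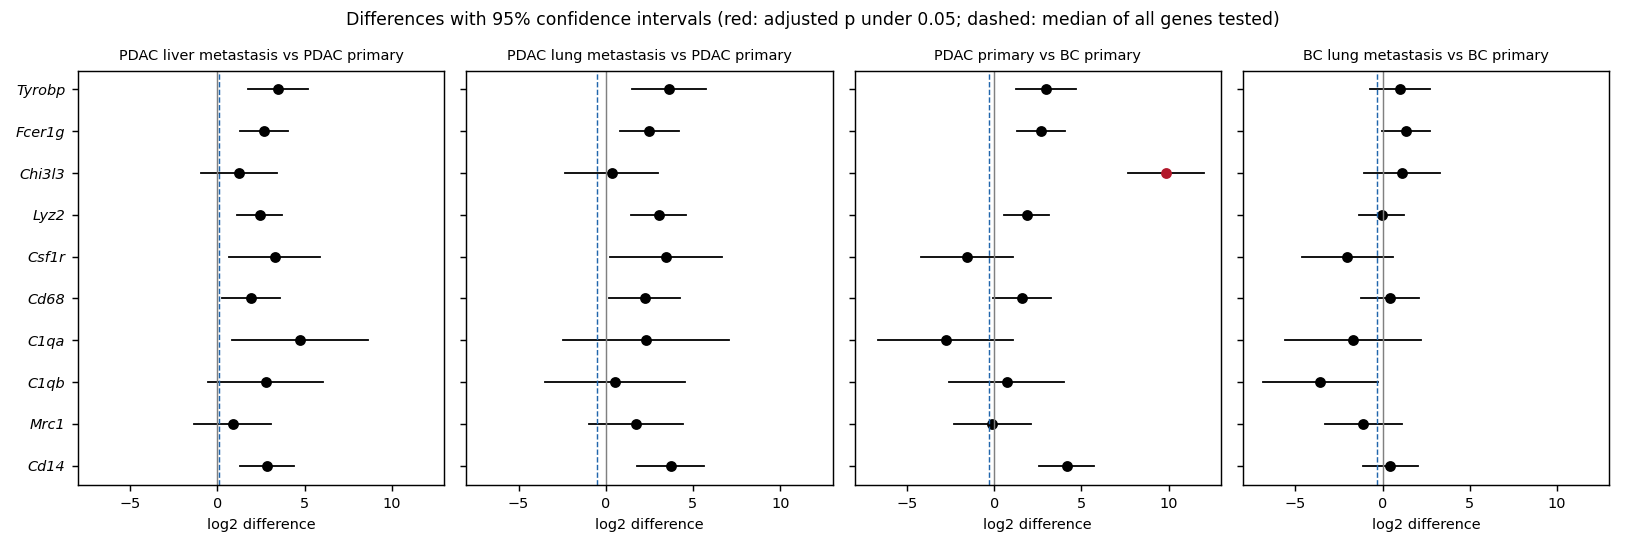
Log2 differences of the 10 genes in 4 comparisons, with 95% intervals from limma, not adjusted for the number of genes. All 10 are positive in both PDAC metastasis comparisons (9 for the lung after quantile scaling), 5 are positive in BC (3 after rescaling without haemoglobin), and Chi3l3 in PDAC primary against BC primary tumours, at 9.83, is the 1 called difference.

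PDAC primary against BC primary tumours gave the 1 call among the 10. Chi3l3 was higher by 9.83 ± 0.98 on the log2 scale (95% interval 7.66 to 12.01, limma adjusted p = 0.00846), 1 of the 4 genes, or 0.0312%, that passed. It stayed positive in all 17 alternative fits (adjusted p 0.000714 to 0.173) but passed in 11 of them, and without BC lung metastasis 4, a library outside the comparison that enters the estimate of the spread, its adjusted p was 0.0526. With the PDAC number as a block, its difference was 9.38 (adjusted p = 0.108) and 1 gene of the table was called, but that fit sets PDAC at the level of number 1 against BC. With the number centred, a fit chosen after seeing the data, its difference was 9.83 (adjusted p = 0.0546), and again 1 gene was called. The next was Cd14, at 4.17 ± 0.71 (adjusted p = 0.112). Its difference was 4.74 without PDAC primary 5 and 3.59 without PDAC primary 1, fits that each leave 1 PDAC primary tumour. Of the 10 genes, 7 had positive differences (8 after quantile scaling), against 41.4% of all genes, and 5 were higher at an unadjusted p under 0.05, against 3.76%. Csf1r, C1qa and Mrc1 had negative ones, of -1.55 ± 1.18, -2.78 ± 1.75 and -0.12 ± 1.00. Without PDAC primary 1, which leaves PDAC primary 5 with its 1.00 estimated read, the C1qa difference was -6.11. Both PDAC primary tumours were above both BC primary tumours for 6 genes, Tyrobp, Fcer1g, Chi3l3, Lyz2, Cd68 and Cd14, against 15.7% of all genes. The models also differ in tumour origin, reporter and time, which cannot be told apart from the model.

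The PDAC liver effect minus the BC lung effect was positive for all 10 genes (9 after either rescaling), against 62.6% of all genes, and 6 were higher at an unadjusted p under 0.05, against 3.34%. That number was 2 without PDAC primary 5, 2 without BC primary 5, 3 without BC lung metastasis 6, 2 with no filter on low values and 1 without the 3 libraries with the fewest genes. None passed the adjusted threshold, as was so for all genes (0 of 12832, 0.0%, with 530 at an unadjusted p under 0.05). With metastasis set against primary tumour over both models, 9 of 10 differences were positive (8 after rescaling without haemoglobin), against 40.9% of all genes, 5 were higher at an unadjusted p under 0.05, against 2.19%, and none was called, against 0.00779%. Without PDAC primary 5, 6 differences were positive, 3 genes were higher and the median was 0.80, against 1.33 with it. Fcer1g had the smallest p in that fit, with 2.04 ± 0.43 (limma adjusted p = 0.420).

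Other macrophage genes were described from 11 lists of 135 further genes in all, of which 134 were in the table and 130 were tested. In PDAC liver metastases against primary tumours 105 of the 130 had positive differences, 42 were higher and 0 lower at an unadjusted p under 0.05, and none was called. Their median was 1.73, against 0.08 over all genes. All genes had 53.9% positive differences and 4.89% higher at that p. The list counts here and below come from the fit of all 9 libraries and were not repeated without PDAC primary 5. In that library 8 of 17 receptors and kinases of the ITAM adaptors were above 0. Of genes that sense lipopolysaccharide 3 of 12 were above 0 there, and of lysosomal genes 14 of 15. For the PDAC lung metastasis 95 were positive, against 33.7% of all genes, 38 were higher and 5 lower at that p, against 5.78% higher, and 1 was called, against 0.584%. For BC lung metastases 49 were positive, against 35.6% of all genes, 4 were higher, against 0.881%, and 1 lower, none was called, and the median was -0.24, against -0.29 over all genes.

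Among receptors and kinases that work with the ITAM adaptors, 16 of 17 differences were positive in PDAC liver metastases, against 53.9% of all genes, with 7 higher at an unadjusted p under 0.05, against 4.89%. Trem1, a DAP12-coupled receptor that amplifies inflammation, had 90.5 and 260.3 RPKM in liver metastases and 260.3 in the lung metastasis, against 16.0 and 0 in PDAC primary tumours. Fcgr3, a low-affinity Fc receptor that needs the gamma chain, had 446 and 759.5 RPKM in liver metastases and 118.5 in the lung metastasis, against 289 and 0.0183 in primary tumours. PDAC primary 5 was at or near 0 for both genes.

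Of 12 genes of the CSF1 axis, 8 differences were positive in liver metastases, against 53.9% of all genes. Sfpi1, which encodes PU.1, had 185 and 729 RPKM in liver metastases of PDAC and 502 in the lung metastasis, against 114.5 and 0.0711 in PDAC primary tumours. In BC it had 17.8 and 0 RPKM in lung metastases and 4.62 and 5.84 in primary tumours. The PDAC metastases thus had the highest values of all libraries. Cebpb, a factor that other cells use as well, had 3521 and 5446 RPKM in liver metastases and 7011 in the lung metastasis, against 1378 and 367 in PDAC primary tumours. Csf2ra, a chain of the GM-CSF receptor, had 123 and 302.5 RPKM in liver metastases and 213 in the lung metastasis, against 77.6 and 0 in PDAC primary tumours.

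Complement and scavenger genes had 14 of 15 positive differences in PDAC liver metastases, against 53.9% of all genes, and 1 of 15 in BC lung metastases, against 35.6%. In the PDAC lung metastasis 1 gene of the list was called, against 0.584% of all genes. C1qc, the remaining C1q chain, had 954 and 101.5 RPKM in liver metastases of PDAC and 130.4 in the lung metastasis, against 84.0 and 0.0165 in PDAC primary tumours. C5ar1, the receptor for the complement fragment C5a and also a neutrophil gene, had 74.1 and 408 RPKM in liver metastases and 167 in the lung metastasis, against 23.8 and 0 in primary tumours. Neither was called. Cd36, a fatty acid and scavenger receptor that endothelial cells also carry, was higher in the PDAC lung metastasis than in PDAC primary tumours by 6.78 ± 1.07 (limma adjusted p = 0.0348). It had 110.9 RPKM in the lung metastasis, against 0.027 and 0.00813 in the primary tumours, so the call rests on 1 lung library. Cd36 passed in 6 of the 12 alternative fits that tested it (adjusted p 0.0109 to 0.13), and not with the PDAC number as a block (0.106). Among the libraries of the comparison alone it did not reach the minimum level. In liver metastases it had 0.81 and 4.49 RPKM. The endothelial genes moved with it: their summed value was 334 RPKM in the lung metastasis, against 3.7 and 0 in the primary tumours, and their part in the Cd36 result was not tested.

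Clec4f, a lectin specific to Kupffer cells, had 597 RPKM in PDAC liver metastasis 1, 7.25 in liver metastasis 5 and 54.8 in the lung metastasis, against 0 and 0.0388 in PDAC primary tumours. Marco, a scavenger receptor of Kupffer cells and alveolar macrophages, had 589.5 and 7.48 RPKM in liver metastases and 34.5 in the lung metastasis, against 6.11 and 0.0161 in primary tumours. Both genes were highest in liver metastasis 1. Id3, a transcriptional regulator that Kupffer cells need but that other cells use as well, had 430 and 188 RPKM in liver metastases and 273 in the lung metastasis, against 73.3 and 0.125 in primary tumours. Ear2, a ribonuclease of eosinophils and alveolar macrophages, had 56.2 and 19.1 RPKM in liver metastases and 95.8 in the lung metastasis, against 139.9 and 33.4 in primary tumours, and so overlapped between groups. Of 9 Kupffer cell genes tested, 8 were higher in liver metastases at an unadjusted p under 0.05, against 4.89% of all genes. None was called, against 0.00779% (Clec4f 6.11 ± 1.67, limma adjusted p = 0.375). In the PDAC lung metastasis 3 of the 9 were higher at that unadjusted p, against 5.78% of all genes, and 1 was lower. To be tested, a gene had to reach 1 RPKM in 2 or more libraries. Clec4f did so in every PDAC metastasis and in neither PDAC primary tumour, so the count of 8 is a description only. The 11 measured genes of that list summed to 2215 and 305 RPKM in PDAC liver metastases and 403.5 in the lung metastasis. Their sums were 103 and 53.2 RPKM in PDAC primary tumours, and 266 and 483 in BC lung metastases 4 and 6. Liver metastasis 1, which had the most C1qa and C1qb, thus also had the most Clec4f and Marco, while liver metastasis 5 had the most Chi3l3 and Tyrobp.

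The lists of activation states gave different counts. Of 11 inflammatory genes tested, 10 had positive differences in PDAC liver metastases, and 6 were higher at an unadjusted p under 0.05. Of 12 genes of interleukin-4 activation, 8 were positive and 2 higher, against 53.9% and 4.89% of all genes. In the PDAC lung metastasis 6 of the 11 and 4 of the 12 were higher at that p, against 5.78%, and 1 of the 12 was lower. No gene of either list was called, against 0.00779% and 0.584% of all genes. Il1b, an inflammatory cytokine, had 742 and 1129 RPKM in liver metastases of PDAC and 1901 in the lung metastasis, against 204 and 0.0502 in PDAC primary tumours. Arg1, the arginase of interleukin-4 activated macrophages, had 294 and 151 RPKM in liver metastases and 0.053 in the lung metastasis, against 152 and 117 in primary tumours. Il1b was higher in every PDAC metastasis than in the primary tumours, and Arg1 was not. Mgl2, a lectin of such macrophages and of dendritic cells, had 4.1 and 14.7 RPKM in liver metastases and 255 in the lung metastasis, against 19.1 and 0.0148 in primary tumours. Retnla, a secreted protein of the same activation, had 0.968 and 80.6 RPKM in liver metastases and 207 in the lung metastasis, against 8.78 and 0 in primary tumours. Mgl2 and Retnla were highest in the lung metastasis. The chemokine Ccl2, which draws monocytes, had 361 and 38.9 RPKM in liver metastases and 1474 in the lung metastasis, against 262 and 44.7 in primary tumours. The chemokine Ccl4 had 706 and 630.5 RPKM in liver metastases and 765 in the lung metastasis, against 195 and 0 in primary tumours. The lung values of Il1b, Arg1, Mgl2, Retnla, Ccl2 and Ccl4 come from 1 library.

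Partners of CD14 stayed below it in the PDAC libraries. Myd88, the adaptor of most Toll-like receptors, had 54.2 and 126.9 RPKM in liver metastases of PDAC and 87.2 in the lung metastasis, against 23.0 and 0 in PDAC primary tumours. Tlr2 had 13.1 and 27.8 RPKM in liver metastases and 74.5 in the lung metastasis, against 5.73 and 0 in primary tumours. Ly96, which encodes MD-2, had 11.2 and 27.5 RPKM in liver metastases and was listed at 0 in the lung metastasis and in PDAC primary 5, against 9.86 in PDAC primary 1. Of the 12 genes of this list, 9 had positive differences in liver metastases, against 53.9% of all genes. At an unadjusted p under 0.05, 4 were higher, against 4.89%.

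Of 11 other general macrophage genes, all had positive differences in PDAC liver metastases, against 53.9% of all genes. At an unadjusted p under 0.05, 2 were higher, against 4.89%, and none was called, against 0.00779%. Apoe, an apolipoprotein of macrophages and hepatocytes, had 5565 and 1633 RPKM in liver metastases and 924 in the lung metastasis, against 911 and 130.4 in PDAC primary tumours. Lgals3, a galectin that carcinoma cells also make, had 1239.5 and 1051 RPKM in liver metastases and 1234 in the lung metastasis, against 605 and 435 in primary tumours. Ctsc, a lysosomal protease, had 106 and 45.7 RPKM in liver metastases and 98.7 in the lung metastasis, against 71.9 and 30.7 in primary tumours, where the liver values overlapped those of the primary tumours. The summed value of 7 hepatocyte genes was 825 and 2154 RPKM in liver metastases, against 1.91 and 248 in PDAC primary tumours, and its part in the Apoe values was not tested.

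Among monocyte genes, Plac8 was called, being higher in PDAC primary than in BC primary tumours by 7.19 ± 0.823 (limma adjusted p = 0.0155). It passed in 9 of 17 alternative fits (adjusted p 0.00653 to 0.173), and not with the PDAC number as a block (0.108, or 0.0562 with the number centred). It had 214 and 289 RPKM in PDAC primary tumours, against 0.779 and 0.652 in BC primary tumours, and some carcinoma cells are known to transcribe it as well. In PDAC liver metastases Plac8 had 530 and 159 RPKM. Nr4a1, a factor of nonclassical monocytes and an immediate early gene in many cells, had 399.9 and 411 RPKM in liver metastases and 1003 in the lung metastasis, against 89.9 and 48.8 in PDAC primary tumours. Ly6c1, which endothelial cells also carry, had 114 and 7.49 RPKM in liver metastases and 837 in the lung metastasis, against 22.6 and 45.6 in primary tumours. Both genes were highest in the lung metastasis.

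Of 15 differences of lysosomal genes, 13 were positive in liver metastases, against 53.9% of all genes. Only 1 was higher at an unadjusted p under 0.05, against 4.89% of all genes. Cyba, a subunit of the phagocyte oxidase, had 2303 and 4486 RPKM in liver metastases and 2423 in the lung metastasis, against 1603 and 1581 in PDAC primary tumours. Ctsd, a cathepsin, had 1077 and 597 RPKM in liver metastases and 515 in the lung metastasis, against 349.8 and 515 in PDAC primary tumours, so that the liver values were above both primary tumours. The cathepsin Ctsl had 951 and 268 RPKM in liver metastases and 152 in the lung metastasis, against 400.4 and 961 in PDAC primary tumours, and its liver and primary values overlapped.

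**Figure D4:**
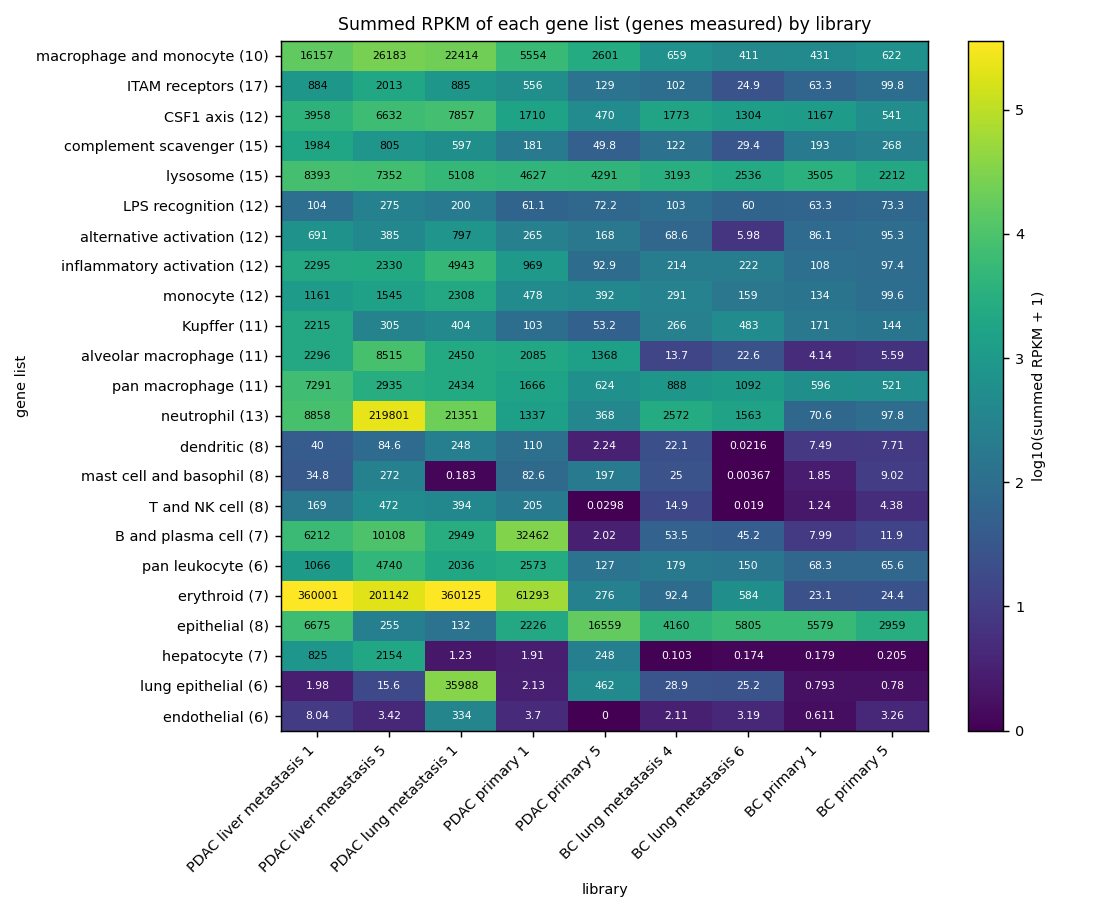
Summed RPKM of each gene list by library, with the number of genes measured in brackets. Colour runs with log10 of the sum plus 1. The 10 macrophage and monocyte genes (top row) sum to 16157, 26183 and 22414 RPKM in the PDAC metastases, and the neutrophil list peaks in PDAC liver metastasis 5 at 219801. The alveolar macrophage list includes Chi3l3.

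Neutrophil markers moved with the 10 genes in PDAC, and their part in the results was not tested. The summed value of 13 neutrophil genes was 8858 and 219801 RPKM in liver metastases of PDAC and 21351 in the lung metastasis, against 1337 and 368 in PDAC primary tumours. In BC it was 2572 and 1563 RPKM in lung metastases, against 70.6 and 97.8 in primary tumours. There 12 of 13 differences were positive, against 35.6% of all genes, and none was called, against 0.0%. Neutrophil sums were higher in both BC metastases than in both BC primary tumours. Of the 10 genes, Fcer1g and Cd68 were also higher in both, against 15.8% of all genes. Csf1r, C1qa, C1qb and Mrc1 were lower in both, against 27.0% of all genes. How these orders relate was not tested. In PDAC liver metastases 12 of the 13 differences of neutrophil genes were positive, against 53.9% of all genes. At an unadjusted p under 0.05, 7 were higher, against 4.89%, and none was called, against 0.00779%. Of their defining markers, Mpo was at 0 in liver metastasis 1, Ly6g in the PDAC lung metastasis, Cxcr2 and Csf3r in PDAC primary 5, Ly6g, Mpo and Elane in BC lung metastasis 6, and Ly6g in BC primary 5. The summed value of 6 genes shared by leukocytes was 1066 and 4740 RPKM in liver metastases and 2036 in the lung metastasis, against 2573 and 127 in PDAC primary tumours. PDAC primary 5 had the most epithelial and the least leukocyte transcript of the PDAC libraries. It had 498 RPKM of Lyz2, 1243 of Chi3l3, 417 of Cd14, 173 of Fcer1g and 139 of Tyrobp. The source of these transcripts was not tested, and the library is among the 3 with the fewest genes. The summed value of 7 B and plasma cell genes did not follow the 10 genes, with 6212 and 10108 RPKM in liver metastases and 2949 in the lung metastasis, against 32462 and 2.02 in PDAC primary tumours. Ptprc, the leukocyte antigen CD45, had 8.6 and 43.5 RPKM in liver metastases and 33.5 in the lung metastasis, against 23.9 and 0.00549 in PDAC primary tumours.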

How the data were processed

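RNA was made into libraries with SMART-seq v4 and Nextera XT, per the labels' protocols, which do not mark strand. Per the submitters' processing notes, reads were placed on mm9. The sources used here name no aligner or counting program. The authors deposited 1 table, named CPM, whose columns sum to 288171 to 992077. Low values (under 20 reads) multiplied by GENCODE M21 exonic length came within 0.02 of whole multiples of 1 step in 62.8 to 74.4% of cases, against 4.1 to 5.4% without length, so the values deposited by the authors were read as RPKM. Lengths were found for 93.0% of genes. Reads per gene given in the text are estimates from that step. The library total that the step implies was not the estimated number of reads on genes. It was 17300000 against 28100000 such reads in PDAC liver metastasis 1, and 131000000 against 127900000 in BC primary 5. RPKM values compared between libraries carry this difference in scale.

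Tests on log2(RPKM + 1) used limma 3.58.1 (R 4.3.3, with statmod 1.5.0), with trend and robust moderation, for genes that reached 1 RPKM in 2 or more of 9 libraries. All libraries entered 1 fit with a mean per group (4 residual degrees of freedom). Metastasis over both models had the model as covariate. Tests were two-sided, adjusted by Benjamini-Hochberg over all 12832 genes. The genes and lists were chosen with earlier results of these data known. Named are the 10 genes in every library, from each list of further macrophage genes the called genes and the 3 with the highest mean over libraries (1 gene so chosen is not reported here), and for Csf1r, Tyrobp, C1qa and Chi3l3 the 4 genes with the highest Pearson r. Alternatives were a pseudocount of 0.1, no filter, rescaling without haemoglobin, quantile scaling, only the libraries compared, a replicate block (also with the number centred, added after seeing the data), leaving out each library, and leaving out the 3 libraries with the fewest genes.

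PDAC libraries with the same number share a time and a genotype label and were taken to pair by mouse. Over 12832 genes, the deviations from the group mean correlated at -0.165 between primary 1 and liver metastasis 1. Between primary 1 and liver metastasis 5 the value was 0.165. With 2 libraries per group these are 1 number with its sign turned, so the check could not decide the pairing. BC groups share no numbers.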

Additional observations from a re-analysis of the deposited data

Results flagged for a closer look

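The order of metastasis and primary tumour for Csf1r differed between the models, and the gene was flagged for that order in these same values. Both PDAC liver metastases were above both PDAC primary tumours, as for 15.4% of all genes. Both BC lung metastases were below both BC primary tumours, as for 27.0%. Csf1r was listed at 0 in PDAC primary 5 and BC lung metastasis 6, which are among the 3 libraries with the fewest genes. The PDAC liver effect minus the BC lung effect was 5.3 on the log2 scale (SE 1.67, unadjusted p = 0.00965, limma adjusted p = 0.874), so the test of the difference did not pass. This difference was 4.19 to 6.40 when each library was left out in turn, and 3.55 to 8.80 over all 16 alternative fits.

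C1qb showed the same orders, with a difference between the effects of 6.32 (SE 2.09, unadjusted p = 0.0126, limma adjusted p = 0.874), which did not pass either. It ranged from 3.66 to 8.99 when each library was left out, and from 3.13 to 8.99 over all 16 alternative fits. BC lung metastasis 6 has 1.00 estimated read of the gene.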

How the results depend on the processing

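With 1 or 2 libraries per group, 1 library can decide a call. The fit used for the results called 0 genes in BC lung metastases against primary tumours, 1 in PDAC liver metastases, 75 in the PDAC lung metastasis, 4 in PDAC liver against lung metastasis, 4 in PDAC against BC primary tumours, 0 between the site effects and 1 over both models. In that order, leaving out each library gave 0 to 0, 0 to 1032, 0 to 1547, 0 to 329, 1 to 803, 0 to 30 and 0 to 10 genes. Of the 10 genes, it gave 0 to 6 in PDAC liver metastases, 0 to 5 in the PDAC lung metastasis, 0 to 3 in PDAC against BC primary tumours and 0 to 1 between the effects (C1qa, 9.72, limma adjusted p = 0.0396), each highest without PDAC primary 1. Of 1078 alternative values for 70 gene-by-comparison results, 1006 kept their direction and side of the threshold, 51 changed sign, 15 newly passed (14 without PDAC primary 1) and 6 no longer passed, all of them Chi3l3 in PDAC against BC primary tumours. The causes were not tested.

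A pseudocount of 0.1 called 0 genes in PDAC liver metastases, 270 in the PDAC lung metastasis, 188 in liver against lung and 0 over both models, and 0 of the 10 genes in PDAC against BC primary tumours (Chi3l3 adjusted p = 0.067). No filter gave 0, 251, 230 and 0 in those comparisons, and 0 genes in PDAC against BC primary tumours. Rescaling without haemoglobin gave 0 in PDAC liver metastases and 0 over both models, and quantile scaling gave 0, 144, 64, 15 in PDAC against BC primary tumours and 6 over both models. Fits of only the libraries compared gave 73 genes in BC, 0 in the PDAC lung metastasis, 222 in liver against lung and 0 in PDAC against BC primary tumours. Without the 3 libraries with the fewest genes, 0 genes were called in PDAC liver metastases, 72 in PDAC against BC primary tumours and 0 over both models. With the replicate block, which takes PDAC libraries of the same number as paired, 0 genes were called in PDAC liver metastases, 0 in the PDAC lung metastasis, 0 in liver against lung, 1 in PDAC against BC primary tumours and 0 over both models, and Chi3l3 was not called (9.38, adjusted p = 0.108). In PDAC against BC primary tumours that block sets PDAC at the level of number 1 against BC. With the number centred, an alternative chosen after seeing the data, 1 gene and 0 of the 10 were called (Chi3l3 9.83, adjusted p = 0.0546).

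Signs turned for 51 values, C1qa and C1qb among them. Rescaling without haemoglobin gave -0.028 for Cd14 and -0.059 for Cd68 in BC, -0.15 for Mrc1 over both models, -0.20 for Chi3l3 between the effects and -0.056 for Fcer1g in liver against lung. Quantile scaling gave -1.72 for Chi3l3 between the effects, -0.059 for Fcer1g in liver against lung, -0.45 for Chi3l3 in the PDAC lung metastasis and 0.062 for Mrc1 in PDAC against BC primary tumours. The pseudocount of 0.1 gave -0.28 for Chi3l3 between the effects. Under the replicate block, liver against lung gave 0.36 for Cd68, 0.50 for Csf1r and 0.0073 for Mrc1, the PDAC lung metastasis gave -0.055 for C1qa and -0.43 for C1qb, Mrc1 had -0.039 over both models, and Mrc1 had 0.75 in PDAC against BC primary tumours, where PDAC stands at the level of number 1 (-0.12 with the number centred). Without the 3 libraries, Lyz2 had 0.15 in BC, C1qa -0.040, C1qb 0.67 and Mrc1 -0.61 over both models, Chi3l3 -1.46 between the effects, Mrc1 -0.21 in PDAC liver metastases, and C1qa 0.54 and Mrc1 0.96 in PDAC against BC primary tumours.

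Leaving out each library gave, in BC, -0.45 to 1.33 for Cd14, -0.15 to 2.40 for Chi3l3 and -0.26 to 0.17 for Lyz2. Over both models it gave -0.70 to 2.14 for C1qa, -1.40 to 0.97 for C1qb, -0.19 to 1.66 for Csf1r and -0.59 to 0.58 for Mrc1. It gave -1.16 to 1.39 for Chi3l3 between the effects, -0.21 to 1.95 for Mrc1 in PDAC liver metastases, -1.0 to 5.65 for C1qa and -0.0093 to 1.04 for C1qb in the PDAC lung metastasis. In liver against lung it gave -1.08 to 0.42 for Cd68, -0.32 to 2.11 for Chi3l3, -0.46 to 0.088 for Csf1r, -0.29 to 0.65 for Fcer1g and -0.80 to 0.45 for Tyrobp. In PDAC against BC primary tumours it gave -6.11 to 0.54 for C1qa and -1.19 to 0.96 for Mrc1. PDAC lung contrasts could not be fitted without that library, and the comparison over both models was not run on its own libraries alone, which are all 9.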
